A study of Homo sapiens with 45 samples.

Results

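The genes described here are the MYB family (MYB, MYBL1 and MYBL2), FOXM1 and the subunits of the MuvB core named LIN9, LIN37, LIN52 and LIN54. They were chosen by name, and all 8 were found among the 29159 genes counted in each library. RNA-seq counts were analysed from established adrenergic (ADRN) neuroblastoma lines grown in DMEM/F12 medium with serum: SK-N-BE(2)C, which is MYCN amplified with loss of 1p, IMR-32, in which MYCN and MEIS1 are amplified and 1p is lost, and SH-SY5Y, which is ALK mutant. Runs of 3 values follow this order of lines. Each line was a control or received 1 μM palbociclib (PB), an inhibitor of the cell-cycle kinases CDK4 and CDK6, for 24 h or for longer. The longer treatment was 7 days for SK-N-BE(2)C cells and 5 days for the other lines. Each of the 9 groups held 5 libraries, 45 in all, which the study's methods describe as different passages plated in independent experiments. The control libraries date from the 24-h collection, so longer PB and longer culture cannot be told apart.

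MuvB is a protein core that does not act alone. In resting cells it joins a pocket protein (p107 from RBL1 or p130 from RBL2) and an E2F4 or E2F5 dimer with a DP protein to form DREAM, which represses cell-cycle genes. In dividing cells the pocket protein and E2F leave, B-MYB, the product of MYBL2, binds MuvB instead, and FOXM1 is then recruited to promoters of G2/M genes. These promoters often carry a CHR element, which LIN54 contacts, while E2F elements are found in promoters of G1/S genes and of MYBL2 itself. CDK4 and CDK6 act on the pocket proteins, and their inhibition holds cells in G1. In these bulk libraries fewer cycling cells and less RNA per cell cannot be told apart.

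Promoters of members are shown because E2F and CHR elements are the sites at which DREAM and MuvB complexes are known to act on cell-cycle genes. The 250 bases before the first listed RefSeq start are printed from GRCh38.p14, 5′ to 3′ on the strand of the gene. This build differs from that of the counts. Capitals mark TTTGAA or TTCGAA (CHR), TTCCCGC or TTGGCGC (E2F) and GGCGGGA (E2F core) on either strand. GGCGGGA was added to the search after the sequences and the values were seen, and it can share bases with TTCCCGC on the other strand.
MYBL2, chr20:43666864-43667113, + strand: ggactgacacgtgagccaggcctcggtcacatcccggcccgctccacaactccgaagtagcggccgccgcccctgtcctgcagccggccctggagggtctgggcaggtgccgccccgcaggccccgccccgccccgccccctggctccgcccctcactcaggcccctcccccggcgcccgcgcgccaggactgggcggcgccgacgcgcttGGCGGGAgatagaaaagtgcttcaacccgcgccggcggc
MYB, chr6:135181058-135181307, + strand: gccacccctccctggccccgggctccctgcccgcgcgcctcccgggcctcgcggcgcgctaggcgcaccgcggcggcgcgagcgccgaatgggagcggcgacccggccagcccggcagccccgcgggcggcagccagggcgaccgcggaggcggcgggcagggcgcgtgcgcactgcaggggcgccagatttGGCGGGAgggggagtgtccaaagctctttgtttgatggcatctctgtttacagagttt
LIN52, chr14:74084706-74084955, + strand: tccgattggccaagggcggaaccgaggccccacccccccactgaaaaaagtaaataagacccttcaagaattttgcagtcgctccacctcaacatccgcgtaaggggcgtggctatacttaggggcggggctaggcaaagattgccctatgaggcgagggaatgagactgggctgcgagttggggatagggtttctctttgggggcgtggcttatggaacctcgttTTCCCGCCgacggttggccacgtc
LIN54, chr4:83010824-83011073, - strand: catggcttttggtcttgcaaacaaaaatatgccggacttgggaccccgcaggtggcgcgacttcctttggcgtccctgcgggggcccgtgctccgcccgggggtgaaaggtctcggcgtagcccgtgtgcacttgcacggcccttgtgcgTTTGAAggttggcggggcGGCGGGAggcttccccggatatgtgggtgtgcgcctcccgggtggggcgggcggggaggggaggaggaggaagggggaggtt
LIN37, chr19:35748326-35748575, + strand: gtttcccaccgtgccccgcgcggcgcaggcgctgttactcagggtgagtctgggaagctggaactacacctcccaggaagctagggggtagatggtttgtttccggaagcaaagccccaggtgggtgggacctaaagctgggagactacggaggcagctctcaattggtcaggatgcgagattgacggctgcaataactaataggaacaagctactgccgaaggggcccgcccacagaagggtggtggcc

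GGCGGGA stood at position -39 from the start in MYBL2 and at -58 in MYB. LIN52 held TTCCCGC at -24, and the E2F core on its other strand, at -23, shared bases with it. LIN54 held TTTGAA at -100 and GGCGGGA at -82. The window of LIN37 shown here held none of these motifs, whereas a second listed start of LIN37 had TTTGAA at -182 and GGCGGGA at -162. LIN9 had TTCCCGC at -7 of its first listed start, and TTCGAA at -60 of another, which also held GGCGGGA at -217 and -104. Among 35116 RefSeq start windows of the same length, 13.3% held TTTGAA, 1.19% TTCGAA, 5.52% TTCCCGC, 2.56% TTGGCGC and 13.5% GGCGGGA. The MYB core AACNG, at -15 in MYB, was in 70.6% of the windows and is not marked. A match is a run of letters and was not tested as a binding site. No entry was used for MYBL1 or FOXM1.

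The libraries held 13459219 to 25441812 counts over all genes. Adrenergic markers were present by their median over the libraries of a line. All 6 of PHOX2A, HAND2, GATA3, ISL1, TH and DBH had a median over 10 CPM (counts relative to the library total) in both MYCN-amplified lines. In SH-SY5Y 5 did, and TH had a median of 0.386 CPM there. Single libraries of IMR-32 ran from 0.804 to 129 CPM for TH and from 0.932 to 48.5 for DBH. Of 13 markers of other cell types 11 were found. PTPRC (leukocytes) and PECAM1 (endothelium) had a median of 0 CPM in every line. The mesenchymal gene TWIST1 had medians of 60.2 to 228 CPM, and COL3A1 had a median of 342 CPM in SH-SY5Y. The summed level of these 11 genes was 104 to 201 CPM over the libraries of SK-N-BE(2)C, 155 to 365 in IMR-32 and 476 to 970 in SH-SY5Y. It did not overlap between controls and PB in 1 comparison of each line: 131 to 158 CPM in SK-N-BE(2)C controls against 104 to 121 at 24 h, 271 to 365 in IMR-32 controls against 155 to 210 at 5 days, and 680.4 to 970 in SH-SY5Y controls against 476 to 642 at 5 days. Its part in the results was not tested. In SK-N-BE(2)C, replicates 3, 4 and 5 differed less from each other (1.69 to 3.18 chi-square per degree of freedom) than other pairs did (7.05 to 23.6) among controls and at 24 h, and replicates 4 and 5 did at 7 days (5.60 against 19.3 to 77.8). Fold changes and differences between lines of the 8 genes, but not partners, gene lists or ratios, were therefore also computed with replicates summed. Replicates 3 to 5 of controls and of 24 h in this line became 1 library each. This left 3 libraries in the control and 24-h groups, an alternative chosen after seeing the data. SD and SE with n = 5 in SK-N-BE(2)C may thus be smaller than those of 5 separate cultures. In IMR-32, replicate 5 stood apart from the other libraries of its group, with 56.8 to 85.9 chi-square per degree of freedom in controls against 4.16 to 12.4 for other pairs, 55.3 to 86.9 against 3.93 to 44.7 at 24 h and 22.3 to 48.6 against 4.61 to 17.7 at 5 days. Without the libraries numbered 5, each of the 8 genes in IMR-32 kept its call or lack of one in the 3 comparisons of this line. The fold changes against control were then -3.42 (24 h) and -1.08 (5 days) for MYBL2, -2.97 and -1.33 for FOXM1, -3.55 and -1.35 for MYB, -3.63 and -1.21 for MYBL1, and 0.54 and 0.56 for LIN37, on the log2 scale. At 24 h replicate 2 also stood apart, with 40.4 to 44.7 against replicates 1, 3 and 4, which had 3.93 to 9.51 among themselves, and without this library the 8 genes again kept their calls.

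In untreated cells MYBL2 and FOXM1 had by far the highest levels of the 8 genes in each line, MuvB subunits were intermediate, and MYB and MYBL1 were lowest. Levels between genes are given as CPM per kilobase of the main transcript. MYBL2, the B-MYB gene (chr20:42295659-42345135 in hg19), had 150.4 ± 20.4, 167 ± 14.4 and 122 ± 9.02 CPM per kb in the lines (SD, n = 5). FOXM1, a forkhead factor of G2/M genes (chr12:2966846-2986340), had 117 ± 3.93, 83.8 ± 12.6 and 85.7 ± 5.18 CPM per kb. In each line the libraries of MYBL2 were all above those of FOXM1, and those of FOXM1 all above the next gene. MuvB subunits lay between 5.33 CPM per kb for LIN54 in IMR-32 and 10.1 for LIN9 in SH-SY5Y, and libraries of LIN9 and LIN37, and of LIN37 and LIN52, overlapped in every line. MYB, the c-MYB gene (chr6:135502446-135540311), had 0.805 ± 0.0916, 2.86 ± 0.323 and 2.67 ± 0.112 CPM per kb. MYBL1, the A-MYB gene known from male germ cells (chr8:67474410-67526482), had 0.700 ± 0.147, 1.90 ± 0.228 and 2.92 ± 0.231. All MYB libraries were above those of MYBL1 in IMR-32, and these genes overlapped in the other lines. As a share of the summed CPM per kb of the MYB family, MYBL2 made up 99.0% ± 0.0802 (SD, n = 5), 97.2% ± 0.377 and 95.6% ± 0.301 in the untreated lines.

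Among untreated lines, MYB and MYBL1 differed by the most in the pairs with SK-N-BE(2)C. Line and handling of the libraries cannot be told apart from the labels. Calls were made with edgeR's quasi-likelihood test and needed a Benjamini-Hochberg adjusted p (over all genes) below 0.05 together with a log2 value beyond 0.5 in either direction. MYB was lower in SK-N-BE(2)C than in IMR-32 (log2 difference -1.81 ± 0.31, adjusted p = 1.42e-06) and SH-SY5Y (-1.53 ± 0.31, adjusted p = 2.6e-05). MYBL1 was likewise lower there, with differences of -1.42 ± 0.17 and -1.85 ± 0.17 on the log2 scale. FOXM1 was higher in SK-N-BE(2)C than in SH-SY5Y (0.66 ± 0.22, adjusted p = 0.00729) and IMR-32 (0.50 ± 0.22, adjusted p = 0.0355). The latter call was lost with RLE factors (0.45, adjusted p = 0.0569), with replicates summed (0.52, adjusted p = 0.0647) and without replicate 1, 2, 3 or 4 (0.46 to 0.52, adjusted p = 0.0513 to 0.113). LIN54 was higher in SK-N-BE(2)C than in SH-SY5Y by 0.51 ± 0.10, a call lost with RLE factors (0.47), with the replicates summed (0.47) and without replicate 2 (0.48) or 3 (0.45). MYBL2 differed by -0.13 ± 0.35, 0.51 ± 0.35 and 0.64 ± 0.35 for SK-N-BE(2)C against IMR-32, SK-N-BE(2)C against SH-SY5Y, and IMR-32 against SH-SY5Y, with no call. In all, 3, 4 and 0 of the 8 genes were called in these pairs of lines, where 62.1%, 57.5% and 54.2% of all genes were. Between IMR-32 and SH-SY5Y, where edgeR called 0, LIN52 and MYBL1 were the 2 members with an unadjusted p under 0.05. Both also passed the adjusted p (0.0409 and 0.0165) and missed the fold limit (-0.19 and -0.43). MYBL1 was called without replicate 4 (-0.51).

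After 24 h of PB, MYBL2, FOXM1, MYB and MYBL1 fell in all 3 lines, and in each of these 12 sets all 5 treated libraries were below all 5 controls. Their log2 fold changes ran from -4.68 to -2.01. How many of all genes separate in this way was not counted, here or where separation of libraries is given below. MuvB subunits other than LIN37 fell by less or missed the limit, and LIN37 did not fall in any line. All 8 genes passed the filter on low counts in each line. Of the 8 genes, 6 were called lower and 0 higher in SK-N-BE(2)C, where 10.6% and 10.9% of all genes were. For the 0 called higher by edgeR, 0 of the genes had a higher value at an unadjusted p under 0.05 and DESeq2 called 0. In IMR-32, 7 were called lower and 1 higher against 10.5% and 7.87% of all genes, and in SH-SY5Y 7 and 1 against 11% and 10.5%.

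**Figure D1:**
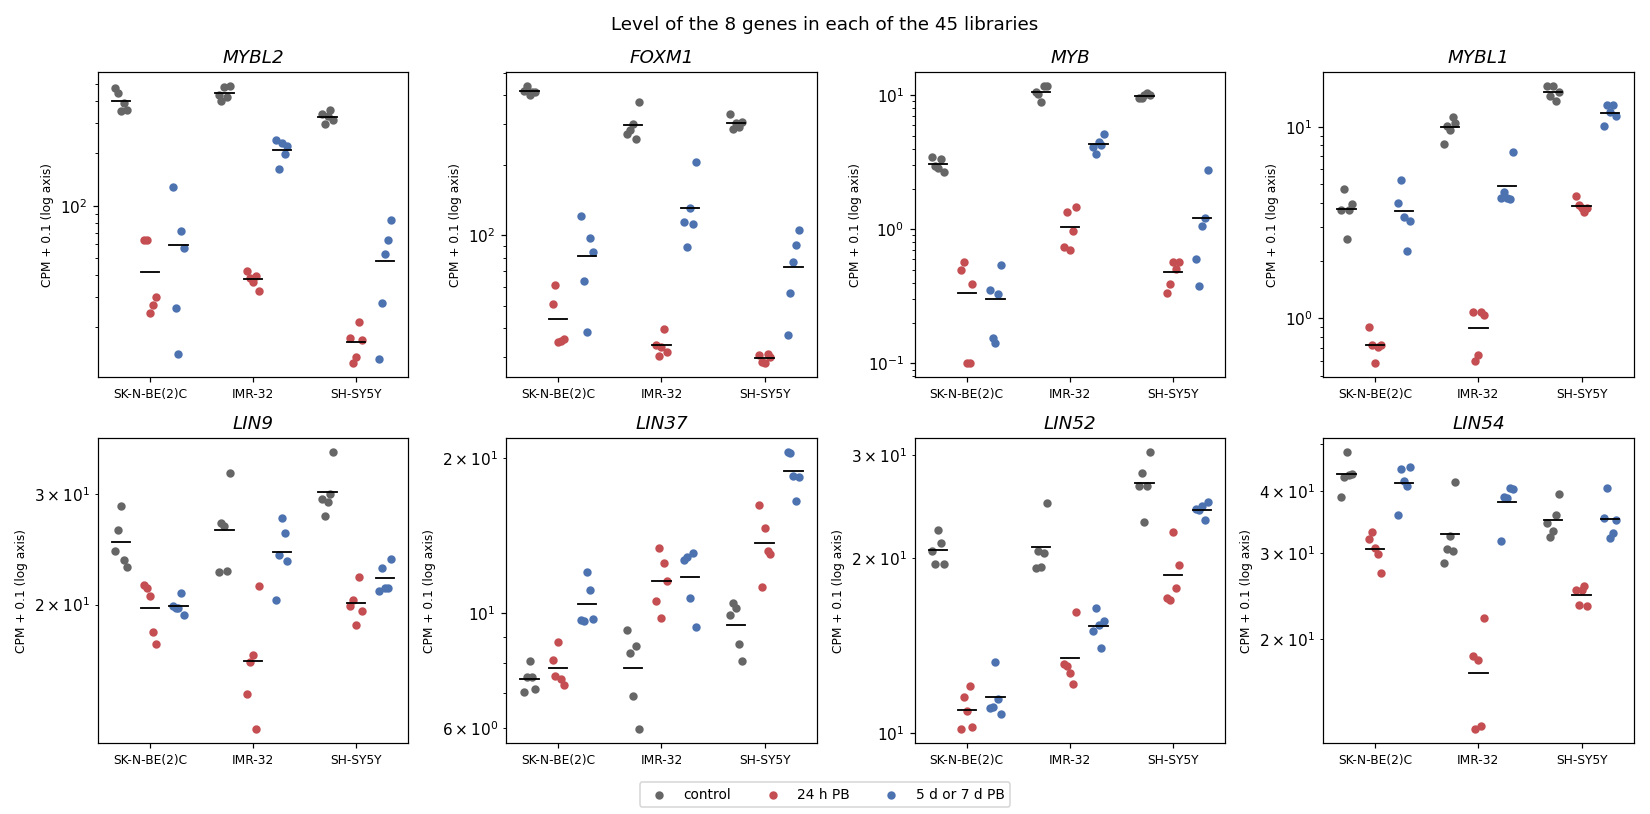
Level of the 8 genes in every library, as CPM + 0.1 on a log axis that differs between panels, with a black line at the mean of the 5 libraries of a group. MYBL2, FOXM1, MYB and MYBL1 are below control in all 5 libraries of each line at 24 h of PB, LIN37 is not, and in SK-N-BE(2)C libraries of longer PB MYBL2 lies between 14.0 and 128 CPM.

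MYBL2 had 472, 442, 348, 389.8 and 354 CPM in replicates 1 to 5 of the SK-N-BE(2)C controls and 63.4, 63.1, 24.1, 26.9 and 29.7 at 24 h. Replicates 1 and 2 kept the higher values at 24 h, and no treated library overlapped the controls. The log2 fold change was -3.30 ± 0.50, adjusted p = 7.88e-05, and -3.09 with replicates 3 to 5 summed (adjusted p = 0.00708). In IMR-32 the controls had 432, 401, 482, 420.4 and 488 CPM and the 24-h libraries 42.0, 38.4, 36.6, 39.5 and 32.1, a log2 fold change of -3.51 ± 0.12, with the smallest SE of the 3 lines (adjusted p = 1.74e-11). In SH-SY5Y, 338, 293, 328, 354 and 309 CPM became 17.4, 12.3, 13.5, 21.4 and 17.0 at 24 h (-4.32 ± 0.40, adjusted p = 8.52e-07). The mean at 24 h was 10.3%, 8.48% and 5.03% of the control mean in these lines.

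FOXM1 fell to a like share of control in each line. SK-N-BE(2)C libraries had 418, 439, 401, 412 and 414 CPM in controls and 50.7, 61.0, 34.6, 35.2 and 36.0 at 24 h (-3.29 ± 0.26, adjusted p = 1.89e-07). IMR-32 controls had 271, 283, 300.3, 259.6 and 373 CPM, with replicate 5 above the others, and the 24-h libraries 33.7, 30.1, 33.2, 39.7 and 31.5 (-3.10 ± 0.19, adjusted p = 6.77e-09). SH-SY5Y went from 334, 285, 305, 293 and 305 CPM to 30.6, 28.4, 28.1, 31.0 and 29.9 (-3.37 ± 0.22, adjusted p = 2.03e-08). The means at 24 h were 10.4%, 11.3% and 9.73% of control, a narrow range across lines. FOXM1 shares 782 exonic bases with ITFG2 on the opposite strand, and the sources used here do not give the strand counted.

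MYB came close to the floor of detection at 24 h. SK-N-BE(2)C had 3.37, 2.85, 2.74, 3.27 and 2.60 CPM in controls and 0.400, 0.472, 0, 0 and 0.291 at 24 h, the last from 0 to 12 counts a library, so that replicates 3 and 4 had no count at all (-3.56 ± 0.51, adjusted p = 2.67e-05). IMR-32 had 10.4, 10.1, 8.82, 11.7 and 11.7 CPM in controls and 0.636, 1.25, 0.595, 0.868 and 1.38 at 24 h (-3.43 ± 0.22, adjusted p = 7.32e-09). SH-SY5Y controls had 9.45, 9.36, 10.0, 10.4 and 9.94 CPM and 24-h libraries 0.237, 0.291, 0.475, 0.410 and 0.471, from 4 to 9 counts (-4.68 ± 0.38, adjusted p = 2.44e-08). MYB was thus at 7.84%, 8.98% and 3.84% of its control mean. A count of 0 allows up to 3 counts in a library, so the size of the fall in SK-N-BE(2)C is limited by depth. MYB shares 103 exonic bases with MYB-AS1 on the opposite strand.

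MYBL1 also fell in each line at 24 h. SK-N-BE(2)C had 3.56, 4.61, 2.495, 3.57 and 3.84 CPM in controls and 0.799, 0.629, 0.483, 0.613 and 0.631 at 24 h (-2.53 ± 0.25, adjusted p = 5.78e-07). IMR-32 had 8.05, 10.0, 9.47, 11.2 and 10.4 CPM and then 0.978, 0.501, 0.545, 0.977 and 0.940 (-3.60 ± 0.23, adjusted p = 7.32e-09). SH-SY5Y had 16.2, 14.3, 16.3, 13.5 and 15.1 CPM and then 4.27, 3.78, 3.68, 3.51 and 3.67 (-2.01 ± 0.10, adjusted p = 7.48e-11). The 24-h mean was 17.5%, 8.02% and 25.1% of control, and only MYBL1 among these 4 genes had a difference of response between lines that was called at 24 h.

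**Figure D2:**
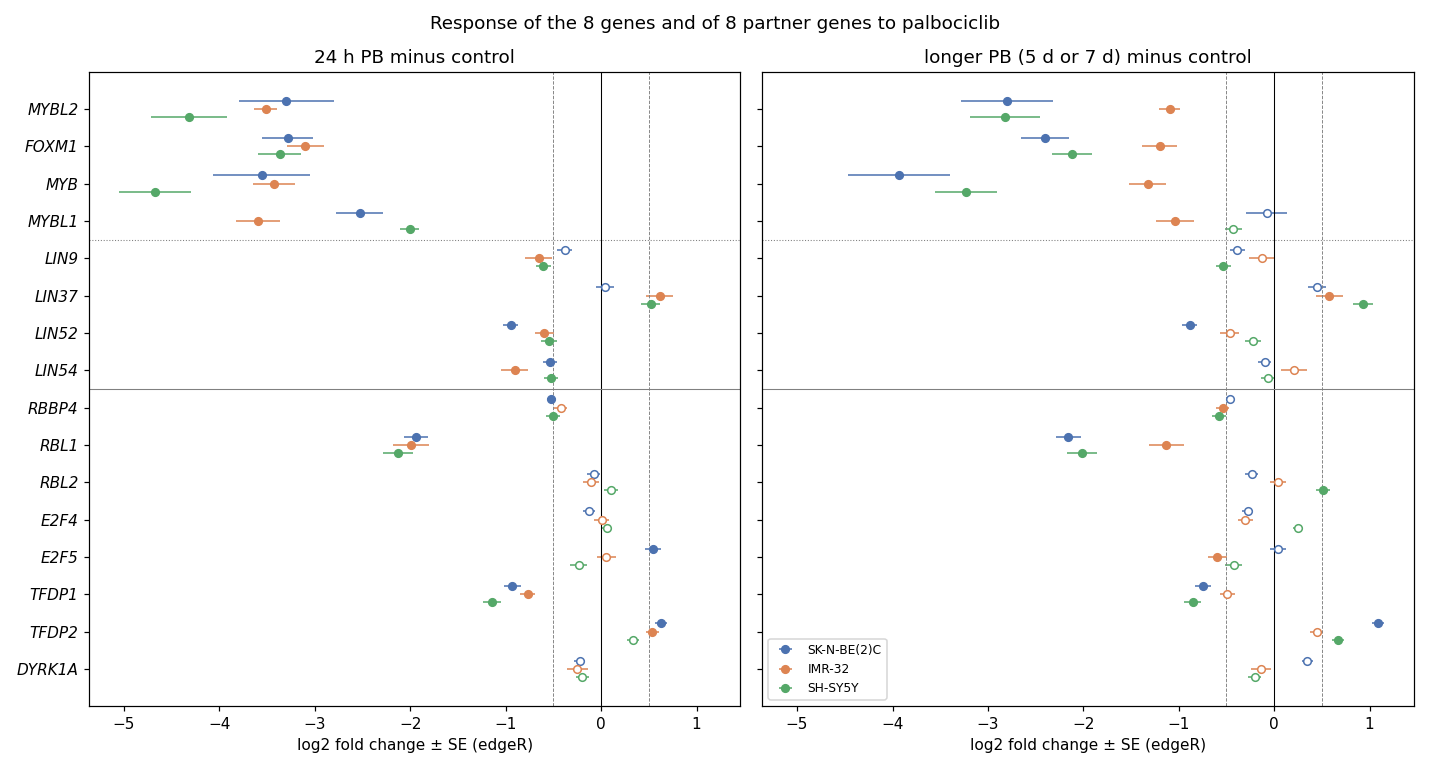
Log2 fold change with its SE (edgeR) of the 8 genes (above the solid line) and 8 partner genes after 24 h (left) and longer PB (right) against control, by line. Filled points were called (adjusted p under 0.05 and beyond the dashed lines at -0.5 and 0.5), and open points were not. The MYB family and FOXM1 are between -4.68 and -2.01 at 24 h, while no MuvB subunit is below -0.95.

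Among MuvB subunits, LIN52, LIN54 and LIN9 were called lower at 24 h in 8 of 9 cases, all under 1 log2 unit. LIN52, the subunit that DYRK1A phosphorylates to assemble DREAM (chr14:74551659-74668196), had 20.5 ± 1.18 CPM (SD, n = 5) in SK-N-BE(2)C controls and 10.9 ± 0.819 at 24 h (-0.95 ± 0.079, adjusted p = 1.01e-07). IMR-32 controls had 20.7 ± 2.30 CPM and 24-h libraries 13.3 ± 1.56 (-0.59 ± 0.10), and SH-SY5Y had 26.8 ± 2.67 and then 18.6 ± 2.20 CPM (-0.54 ± 0.085). No 24-h library overlapped the controls in any line, although the SH-SY5Y value came to -0.49 without control replicate 5. LIN54, the DNA-binding subunit (chr4:83831126-83934079), had 43.2 ± 3.29, 32.6 ± 5.29 and 34.95 ± 2.78 CPM in controls of the lines and 30.5 ± 2.23, 16.9 ± 3.80 and 24.5 ± 1.07 at 24 h, with log2 fold changes of -0.53 ± 0.072, -0.91 ± 0.14 and -0.52 ± 0.074. Again no libraries overlapped. The call in SK-N-BE(2)C was lost without control replicate 3 or 24-h replicate 5 (-0.49 each) and with replicates summed (-0.47), and that in SH-SY5Y without control replicate 5 (-0.48) and in the fit of 45 libraries (-0.50). LIN9, which with LIN52 holds B-MYB (chr1:226418850-226497570), was -0.65 ± 0.14 in IMR-32 and -0.60 ± 0.077 in SH-SY5Y, both called. It was -0.38 ± 0.079 in SK-N-BE(2)C, which passed the adjusted p (0.000862) and not the fold limit.

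LIN37, a subunit needed for repression by DREAM (chr19:36239262-36245420), went the other way in IMR-32 and SH-SY5Y. IMR-32 libraries had 9.20, 8.27, 6.80, 8.57 and 5.86 CPM in controls and 10.5, 13.3, 9.72, 12.4 and 11.5 at 24 h (0.62 ± 0.14, adjusted p = 0.00371). SH-SY5Y had 9.83, 10.4, 10.2, 8.63 and 7.98 CPM and then 16.1, 11.2, 14.5, 13.1 and 12.9 (0.52 ± 0.10, adjusted p = 0.000411). All treated libraries were above all controls in both lines. The SH-SY5Y value lay at the fold limit: it was 0.50 with RLE factors and in the fit of the 2 groups alone, and 0.45 to 0.49 without control replicate 4 or 5, 24-h replicate 1 or 3, or 5-day replicate 1, 2 or 5, each without a call. In SK-N-BE(2)C, 6.93, 7.42, 7.98, 7.43 and 7.03 CPM in controls and 8.04, 7.47, 8.69, 7.36 and 7.18 at 24 h overlapped (0.041 ± 0.095). LIN37 shares 752 exonic bases with a protein-coding gene on the same strand and 1180 with a long noncoding RNA on the opposite strand, so its counts are uncertain. As a share of the summed CPM per kb of the MuvB subunits with RBBP4, LIN37 had 14.4% ± 0.275, 9.57% ± 2.01 and 13.1% ± 1.77 (SD, n = 5) in controls of the lines and 20.3% ± 1.26, 18.5% ± 2.16 and 23.7% ± 3.15 at 24 h, shares that were not tested. In SK-N-BE(2)C the LIN37 level was no higher at 24 h beyond the spread (above), and the levels of LIN9, LIN52, LIN54 and RBBP4 were lower, so the share there is no rise of LIN37.

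With longer PB, MYBL2, FOXM1 and MYB were still called lower in all 3 lines, MYBL1 only in IMR-32, and LIN54 in none. Of the 8 genes, 4 were called lower in each line, where 22.3%, 15.5% and 17.3% of all genes were. LIN37 was called higher in IMR-32 and SH-SY5Y, and 0 members in SK-N-BE(2)C, beside 16.6%, 18.6% and 24.5% of all genes. For that 0, LIN37 passed the adjusted p in edgeR and missed the fold limit, as given below, and DESeq2 called 0. The comparisons of 24 h and of longer PB share their controls.

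MYBL2 had 128, 25.8, 14.0, 71.9 and 57.3 CPM at 7 days in SK-N-BE(2)C, a range that spanned the 24-h values (-2.80 ± 0.49, adjusted p = 0.000112). At 5 days it had 237, 162, 229, 198 and 220.2 CPM in IMR-32 (-1.10 ± 0.11, adjusted p = 2.2e-06), and 13.04, 27.5, 52.6, 63.2 and 83.1 in SH-SY5Y (-2.82 ± 0.36, adjusted p = 1.11e-05). All these libraries were below all controls of their line. The means were 14.8%, 47.1% and 14.8% of control. FOXM1 had 121, 63.8, 38.5, 97.3 and 84.4 CPM in SK-N-BE(2)C cells (-2.40 ± 0.25, adjusted p = 7.78e-07), 114, 89.3, 132, 112 and 205 in IMR-32 (-1.20 ± 0.18, adjusted p = 7.68e-05) and 37.2, 56.2, 77.1, 90.5 and 106 in SH-SY5Y (-2.12 ± 0.21, adjusted p = 5.64e-07). Replicate 5 of IMR-32 stood highest, and its IMR-32 control of the same number was also the highest of the controls. The means were 19.5%, 43.8% and 24.1% of control.

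MYB stayed near 0 in SK-N-BE(2)C, with 0.253, 0.0540, 0.0420, 0.227 and 0.441 CPM at 7 days, from 1 to 8 counts (-3.93 ± 0.53, adjusted p = 5.63e-06). IMR-32 had 4.01, 3.54, 4.41, 4.16 and 5.04 CPM at 5 days (-1.32 ± 0.19, adjusted p = 5.72e-05), and SH-SY5Y had 0.504, 0.279, 0.966, 1.12 and 2.66 (-3.23 ± 0.32, adjusted p = 1.57e-07). Replicate 5 of SH-SY5Y was the highest of its group, and without it the value was -3.83. MYBL1 overlapped the controls again in SK-N-BE(2)C, with 3.91, 5.18, 3.28, 2.16 and 3.14 CPM (-0.078 ± 0.21, adjusted p = 0.753). In IMR-32 it had 4.13, 4.47, 4.13, 4.11 and 7.28 CPM, all below control (-1.04 ± 0.20, adjusted p = 0.000534). SH-SY5Y libraries with 9.97, 12.9, 11.8, 12.8 and 11.2 CPM were all below control, but the value was under the fold limit (-0.43 ± 0.092, adjusted p = 0.000522) and reached it without replicate 2 (-0.50, adjusted p = 0.00113).

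LIN37 stayed above control with longer PB. It had 20.5, 20.4, 18.4, 16.4 and 18.3 CPM at 5 days in SH-SY5Y (0.93 ± 0.10, adjusted p = 3.31e-07) and 12.6, 12.8, 10.6, 12.99 and 9.30 in IMR-32 (0.58 ± 0.14, adjusted p = 0.00339), where the call was lost without control replicate 5 (0.50). At 7 days in SK-N-BE(2)C it had 9.60, 9.56, 11.9, 11.0 and 9.64 CPM, above all controls but under the fold limit (0.45 ± 0.094, adjusted p = 0.000422). LIN52 was still called lower in SK-N-BE(2)C, at 11.4 ± 1.003 CPM (-0.89 ± 0.079, adjusted p = 4.9e-08). It was -0.46 ± 0.10 in IMR-32, and -0.50 with a call when all 45 libraries were fitted together, and -0.22 ± 0.084 in SH-SY5Y. LIN54 was -0.10 ± 0.071, 0.21 ± 0.14 and -0.064 ± 0.073 in the lines, with libraries that overlapped the controls. LIN9 was called lower in SH-SY5Y (-0.53 ± 0.077, adjusted p = 8.12e-06), a call lost with library size alone (-0.46) and without control replicate 5 (-0.47), and was -0.38 ± 0.080 in SK-N-BE(2)C cells and -0.13 ± 0.14 in IMR-32 without a call.

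Between 24 h and the longer time several of these genes rose again, most of them in IMR-32. There, 6 of 8 were called higher, against 10.8% of all genes: MYBL1 (2.56 ± 0.23), MYBL2 (2.42 ± 0.12), MYB (2.11 ± 0.22), FOXM1 (1.90 ± 0.19), LIN54 (1.11 ± 0.14) and LIN9 (0.53 ± 0.14). All 5-day libraries were above all 24-h libraries for each of these but LIN9, which overlapped. The LIN9 call was lost without 24-h replicate 1 (0.48) or 4 (0.45), 5-day replicate 3 (0.47), or all libraries numbered 3 (0.48, adjusted p = 0.0585) or 4 (0.43, adjusted p = 0.0582), and in the fit of 45 libraries (0.49). In SH-SY5Y 4 were called higher against 10.5%: MYBL1 (1.58 ± 0.10), MYBL2 (1.49 ± 0.38), MYB (1.45 ± 0.46) and FOXM1 (1.25 ± 0.21). MYBL2 and MYB libraries overlapped between these times in SH-SY5Y, and those of MYBL1 and FOXM1 did not. The MYB call was lost without the libraries numbered 4 (1.497, adjusted p = 0.0586) or 5 (0.97, adjusted p = 0.0558). SK-N-BE(2)C had 2 called higher against 17.5%, MYBL1 (2.45 ± 0.25, adjusted p = 5.87e-07) and FOXM1 (0.88 ± 0.25, adjusted p = 0.00705). FOXM1 libraries overlapped there and those of MYBL1 did not. The FOXM1 call was lost without the libraries numbered 4 (0.74, adjusted p = 0.0523) and with replicates 3 to 5 summed (0.71, adjusted p = 0.0829). MYBL2 was 0.50 ± 0.47 there and came to -0.012 without 7-day replicate 1. By edgeR 0 members were called lower in any line, where 14.4%, 8.86% and 6.23% of all genes were, 0 had a lower value at an unadjusted p under 0.05, and DESeq2 called 0.

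Responses were then compared between lines by interaction contrasts in a fit of all 45 libraries. At 24 h, 2 of 8 members were called between SK-N-BE(2)C and IMR-32, beside 4.49% of all genes: the fall of MYBL1 was smaller in SK-N-BE(2)C cells (1.07 ± 0.30, adjusted p = 0.0237), and LIN37 was lower in it relative to IMR-32 (-0.57 ± 0.16, adjusted p = 0.0237). Both calls were lost with the replicates summed (adjusted p = 0.0753 and 0.123), MYBL1 also without replicate 1, 2, 3 or 4 (0.94 to 1.14, adjusted p = 0.0598 to 0.13) and LIN37 without replicate 2, 3, 4 or 5 (-0.59 to -0.48, adjusted p = 0.0699 to 0.138). Between IMR-32 and SH-SY5Y, 1 was called beside 3.07%: MYBL1 fell more in IMR-32 (-1.62 ± 0.27, adjusted p = 9.32e-05). Between SK-N-BE(2)C and SH-SY5Y 0 were called by edgeR beside 2.04% of all genes, and DESeq2 called 0. LIN37, LIN52 and MYBL1 had an unadjusted p under 0.05 there. Of these, LIN52 also passed the adjusted p (0.0314) and missed the fold limit (-0.44). With a replicate block LIN37 was called there (-0.51, adjusted p = 0.0147). FOXM1 had differences of -0.18 ± 0.32, 0.055 ± 0.32 and 0.24 ± 0.32 for SK-N-BE(2)C against IMR-32, SK-N-BE(2)C against SH-SY5Y and IMR-32 against SH-SY5Y.

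At the longer time, 4 members differed in response between IMR-32 and SH-SY5Y, both at 5 days, where 20.8% of all genes did. MYB (1.85 ± 0.45, adjusted p = 0.00156), MYBL2 (1.67 ± 0.50, adjusted p = 0.0103) and FOXM1 (0.86 ± 0.31, adjusted p = 0.0319) were less reduced in IMR-32, whereas MYBL1 was more reduced (-0.67 ± 0.23, adjusted p = 0.0269). The FOXM1 call was lost without replicate 1, 2, 3 or 4 (0.67 to 0.97, adjusted p = 0.0596 to 0.139) and that of MYBL1 without replicate 2, 3 or 4 (-0.65 to -0.49, adjusted p = 0.077 to 0.192). Between SK-N-BE(2)C at 7 days and IMR-32 at 5 days, 4 were called beside 23.9% of all genes: MYB (-2.58 ± 0.56), MYBL2 (-1.67 ± 0.50), FOXM1 (-1.18 ± 0.31) and MYBL1 (0.98 ± 0.25). The MYBL2 call was lost without replicate 2 (-1.48, adjusted p = 0.0524). Between SK-N-BE(2)C and SH-SY5Y, LIN52 (-0.69 ± 0.12, adjusted p = 1.84e-05) and LIN37 (-0.51 ± 0.16, adjusted p = 0.0126) were called, 2 members beside 21.2%. LIN37 was under the fold limit with RLE factors (-0.47), in DESeq2 (-0.47) and without replicate 1 (-0.49), 2 (-0.48) or 5 (-0.46). Line and length of treatment cannot be told apart in the pairs with SK-N-BE(2)C.

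The ratio of MYBL2 to FOXM1 counts within a library does not depend on scaling. Its mean log2 value in SH-SY5Y was 0.090 ± 0.11 (SD, n = 5) in controls, -0.88 ± 0.26 at 24 h and -0.79 ± 0.48 at 5 days. The ratio was lower than in controls by differences of -0.97 at 24 h and -0.88 at 5 days (exact permutation test, two-sided, n = 5 against 5, p = 0.00794 each, the smallest this design allows, adjusted p = 0.0476 over 18 tests). In IMR-32 the ratio went from 0.59 ± 0.14 to 0.17 ± 0.16 at 24 h (exact permutation p = 0.00794, adjusted p = 0.0476, n = 5 against 5) and was 0.73 ± 0.37 at 5 days. These 3 calls were lost with the samples paired by replicate block (adjusted p = 0.188 each) and without the libraries of any 1 number (adjusted p = 0.0857 to 0.171), designs whose smallest exact p is 0.0625 and 0.0286 before adjustment, so that the first cannot pass. The differences stayed at -0.49 to -0.35 in IMR-32 and, in SH-SY5Y, at -1.02 to -0.91 at 24 h and -1.01 to -0.72 at 5 days over these alternatives, and in each of the 3 comparisons every treated library was below every control. In SK-N-BE(2)C the ratio was -0.064 ± 0.16 in controls, -0.16 ± 0.34 at 24 h and -0.74 ± 0.64 at 7 days (exact permutation p = 0.0476 against control, adjusted p = 0.143, n = 5 against 5). For MYB over MYBL2, 0 of 9 tests passed after adjustment over the 18, and 1 had an unadjusted exact permutation p under 0.05 (7 days against control in SK-N-BE(2)C, difference -0.94, p = 0.0397, n = 5 against 5).

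Partners of MuvB were read beside the members. RBBP4, its histone-binding subunit, was called lower at 24 h in SK-N-BE(2)C (-0.52 ± 0.046) and SH-SY5Y (-0.51 ± 0.071), and later in IMR-32 (-0.54 ± 0.068) and SH-SY5Y (-0.58 ± 0.071). It was -0.42 ± 0.068 in IMR-32 at 24 h and -0.46 ± 0.046 in SK-N-BE(2)C at 7 days, under the limit. RBL1, the p107 gene, fell in every line at 24 h (-1.94 ± 0.13, -1.99 ± 0.19 and -2.13 ± 0.16) and later (-2.16 ± 0.13, -1.13 ± 0.18 and -2.01 ± 0.16), and rose between these times in IMR-32 (0.86 ± 0.18). RBL2, the p130 gene, was within ±0.11 of control at 24 h and was called only in SH-SY5Y at 5 days (0.51 ± 0.071, adjusted p = 5.4e-06). E2F4 had no call in any comparison, with values against control from -0.30 to 0.25.

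E2F5 was called higher in SK-N-BE(2)C at 24 h (0.55 ± 0.084) and lower in IMR-32 at 5 days (-0.60 ± 0.10), and it fell from 24 h to the longer time in both lines (-0.51 ± 0.084 and -0.65 ± 0.10). The DP genes, whose products pair with E2F proteins, diverged. TFDP1 fell in all lines at 24 h (-0.93 ± 0.086, -0.77 ± 0.081 and -1.14 ± 0.093) and later in SK-N-BE(2)C (-0.75 ± 0.086) and SH-SY5Y (-0.86 ± 0.092), with -0.49 ± 0.080 in IMR-32. TFDP2 rose in SK-N-BE(2)C cells (0.63 ± 0.063 at 24 h and 1.09 ± 0.063 at 7 days), in IMR-32 at 24 h (0.54 ± 0.068) and in SH-SY5Y at 5 days (0.67 ± 0.060). DYRK1A, the kinase of LIN52, had no call against control and was called between 24 h and 7 days in SK-N-BE(2)C (0.57 ± 0.059). RBBP4, RBL1, RBL2, E2F5 and DYRK1A share exonic bases with other genes, mostly on the opposite strand, so their counts are uncertain.

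Genes listed as targets of the complexes fell too. Their binding was not measured. The lists were chosen with earlier results of these data known, so their counts are descriptions. Of 30 G2/M genes listed as CHR targets of MuvB with B-MYB and FOXM1, all 30 were tested and called lower in each line at 24 h and with longer PB. The median log2 fold changes of the list at 24 h were -2.59, -2.56 and -3.14, beside medians of 0.023, 0.060 and 0.037 over all genes tested. With longer PB the list medians were -2.26, -1.38 and -2.04, and those of all genes 0.012, 0.0028 and 0.011. AURKB, a kinase of the chromosomal passenger complex, was -4.46 ± 0.39, -3.42 ± 0.18 and -5.68 ± 0.57 at 24 h, and KIF20A, a kinesin of cytokinesis, -4.98 ± 0.43, -2.83 ± 0.18 and -4.90 ± 0.47. At the longer time AURKB was -3.47 ± 0.37, -1.93 ± 0.17 and -3.19 ± 0.46, and CCNA2, which encodes cyclin A2, -3.34 ± 0.39, -1.61 ± 0.14 and -2.87 ± 0.41. Between 24 h and the longer time, 8, 29 and 28 of the 30 were called higher, with medians of 0.34, 1.27 and 1.06. Of all genes 17.5%, 10.8% and 10.5% were called higher there, with medians of 0.013, -0.0014 and 0.0040.

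Of 20 G1/S genes listed for E2F sites, 19, 20 and 20 were called lower at 24 h, and 19, 17 and 19 with longer PB. Of all genes tested, 10.6%, 10.5% and 11% were called lower at 24 h and 22.3%, 15.5% and 17.3% later, with the medians given above. List medians were -1.82, -2.99 and -2.47 at 24 h and -2.16, -1.08 and -2.08 later. RRM2, a subunit of ribonucleotide reductase, was -3.91 ± 0.59, -4.87 ± 0.19 and -5.24 ± 0.52 at 24 h, and CCNE2, which encodes cyclin E2, -3.10 ± 0.47, -5.02 ± 0.33 and -4.57 ± 0.44. These genes were also the leading examples with longer PB, at -3.20 ± 0.57, -1.43 ± 0.16 and -3.21 ± 0.45 for RRM2 and -3.45 ± 0.48, -1.497 ± 0.26 and -2.61 ± 0.37 for CCNE2. From 24 h to the longer time 2, 20 and 11 of the 20 rose and 2, 0 and 0 fell, where 17.5%, 10.8% and 10.5% of all genes were called higher and 14.4%, 8.86% and 6.23% lower, so that the shares of the list in SK-N-BE(2)C were below those of all genes. The list medians were 0.10, 1.82 and 0.54, with CDT1, a replication licensing factor, called higher in all lines (0.79 ± 0.20, 2.08 ± 0.24 and 1.54 ± 0.28).

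**Figure D3:**
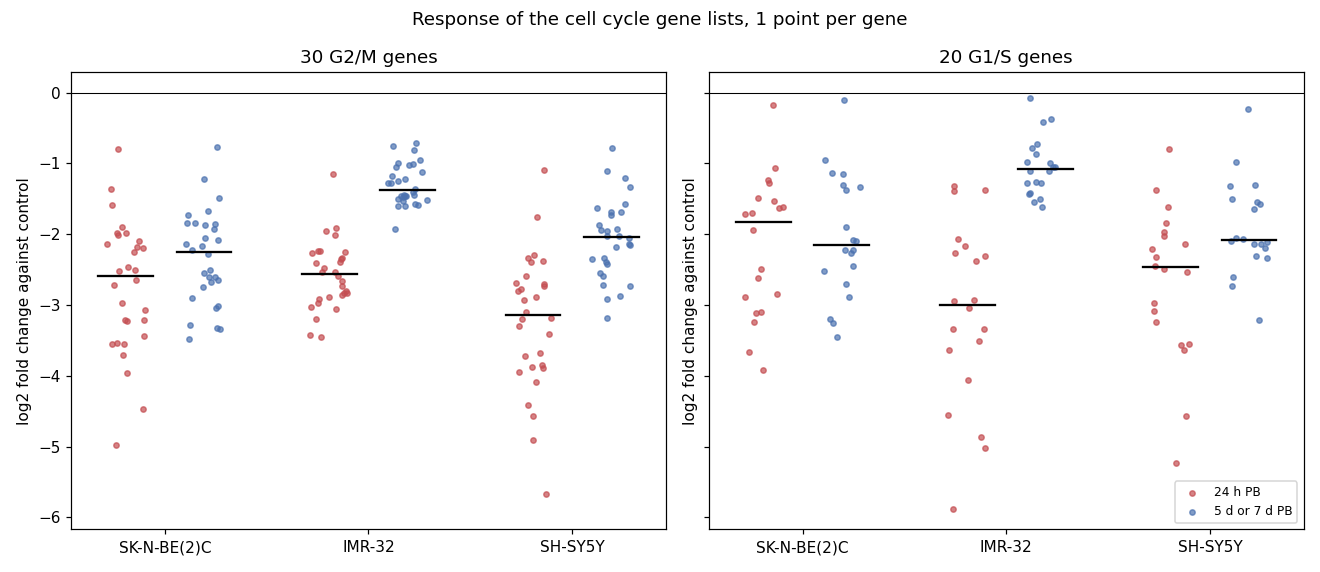
Log2 fold change (edgeR) of each of 30 G2/M genes (left) and 20 G1/S genes (right) against control, by line, after 24 h and after longer PB, with a black line at the median. All G2/M genes lie at or below -0.71, and the medians of IMR-32 with longer PB, -1.38 and -1.08, are nearest to 0.

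Libraries of longer PB differed among themselves, and MYBL2 and FOXM1 did so together with the G2/M list. The mean log2(CPM + 0.5) of the 30 genes was 7.04 to 7.14 in SK-N-BE(2)C controls, 4.15 to 4.73 at 24 h and 3.86 to 5.46 at 7 days. At 7 days replicate 1 was highest and replicate 3 lowest for MYBL2, FOXM1 and this mean alike, in the same order of all 5 libraries. In SH-SY5Y the list mean was 6.82 to 7.16 in controls, 3.55 to 4.12 at 24 h and 3.88 to 5.53 at 5 days. There too the 5 libraries had 1 order for MYBL2, FOXM1 and the list, with replicate 1 lowest, at 13.04 CPM of MYBL2, within the 24-h range, and replicate 5 highest, at 83.1 CPM. In IMR-32 the list mean was 5.30 to 6.03 at 5 days, and replicate 2 was lowest in each of the 3 measures. Replicate 5 was highest for FOXM1 and the list whereas replicates 1 and 3 were above it for MYBL2. The points of a line share libraries and depth, and no test was made of this order.

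**Figure D4:**
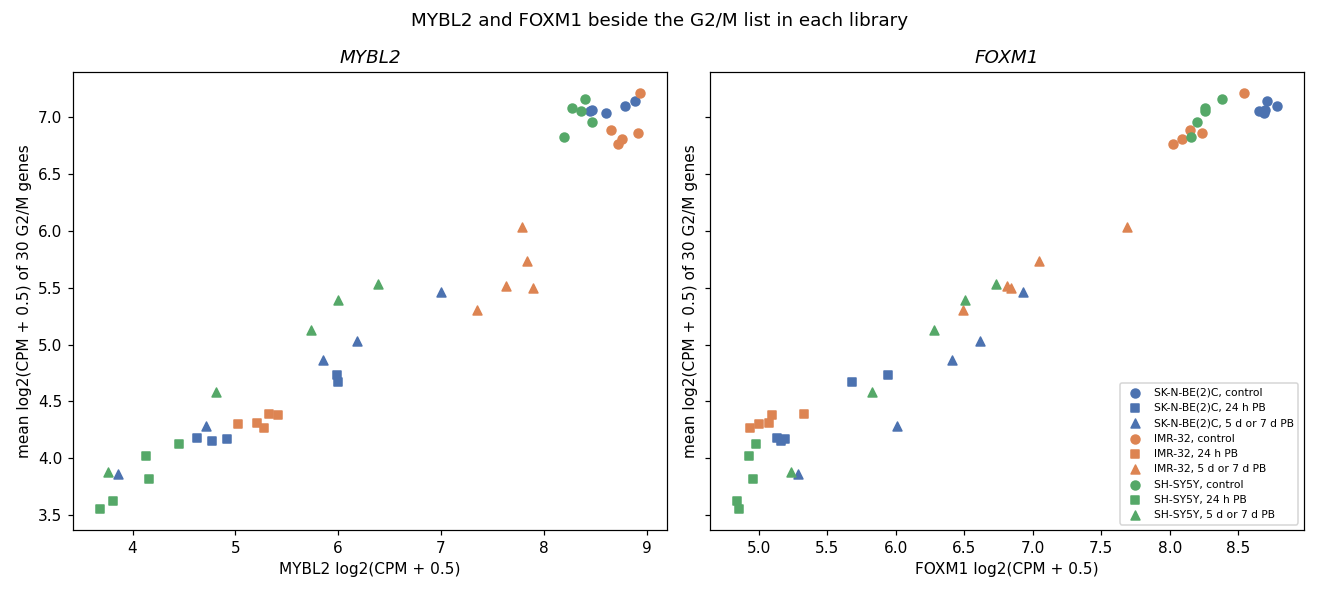
Mean log2(CPM + 0.5) of the 30 G2/M genes against log2(CPM + 0.5) of MYBL2 (left) and FOXM1 (right), with 1 point per library, colour for the line and shape for the treatment. Controls lie at the top right, 24-h libraries at the lower left, and most libraries of longer PB lie between them.

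Genes of like pattern were sought among 12555 other genes tested in all lines, by Pearson's r of log2(CPM + 0.5) with each line's mean subtracted, over 45 libraries that share lines and treatments. These values are descriptions with no test. MYBL2 was nearest to RRM2 (r = 0.994), PRC1 (0.989) and CCNA2 (0.989), and FOXM1 to ESPL1 (0.993), PRC1 (0.993) and GTSE1 (0.993). RRM2, PRC1, CCNA2 and GTSE1 are also on the lists above. MYB was nearest to MND1 (0.975), POLA2 (0.974) and PCLAF (0.974), and MYBL1 to RECQL4 (0.939), RTKN2 (0.934) and FGD5-AS1 (0.912). Among MuvB subunits, LIN54 was nearest to KIF24 (0.937), ZGRF1 (0.919) and CENPJ (0.917), and LIN9 to OBI1 (0.921), ATAD5 (0.919) and BRCA2 (0.918). LIN52 was nearest to TAF5 (0.906), DCLRE1A (0.904) and UCK1 (0.897). LIN37 stood apart, nearest to CPNE1 (0.902), MMP24OS (0.897) and SPATA2L (0.889). Within the 8 genes MYBL2 and FOXM1 had r = 0.978, MYB and MYBL2 0.961, and MYBL1 and MYBL2 0.744. LIN37 had a negative r with each of the other 7, from -0.67 with MYB to -0.14 with LIN54.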

How the data were processed

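PolyA RNA of 45 libraries was sequenced on a NovaSeq from strand-specific libraries. The authors trimmed reads with Trim Galore (0.6.4 per the submitters' processing notes), aligned them to hg19 with STAR (2.6.1d) and deposited raw counts per gene. CPM values, also deposited, are the authors' counts scaled to the total of each library, and were used for levels. Deposited log2 fold changes and adjusted p-values came from the authors' DESeq2 (1.32.0) runs and were not used.

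Counts were fitted with edgeR 4.0.16 under R 4.3.3 (normalised by TMM, filterByExpr with at least 10 counts and 15 in total, robust quasi-likelihood F test) on the 15 libraries of a line, with Benjamini-Hochberg adjustment over all genes. A fit of all 45 libraries compared lines. SE was obtained as the size of the log2 value over the root of its F statistic. Ratios of counts (0.5 added) were compared by exact permutation (scipy 1.17.1). Alternatives were RLE factors, library size alone, no filter, DESeq2 1.42.0, only the compared groups, a fit of all libraries, adjusted p alone, a replicate block, and leaving out libraries. All members and partners were named, with the 2 genes of a list of largest mean change called alike in all lines and the 3 genes of highest correlation. Some genes that the lists hold are not reported here by name. Lists were written from general knowledge. The members and lists were chosen with earlier results of these data known. Gene positions follow GENCODE v44 on GRCh37, and promoters RefSeq. The fit was tried on simulated counts with the same spread for every gene, independent libraries and changes only in genes above a set mean count. That trial does not cover low counts such as those of MYB in SK-N-BE(2)C. Libraries of the same number correlated after removal of group means (lowest 0.109 to 0.249 over pairs of groups). The exceptions were the comparisons of SK-N-BE(2)C at 7 days (lowest 0.0966 and 0.0482). Numbers may thus pair the samples in the other comparisons. The main fits and ratio tests were unpaired, and pairing entered only as the replicate block. SD and SE hold the spread between libraries, and the bound on a count of 0 covers counting error only.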

Additional observations from a re-analysis of the deposited data

Results flagged for a closer look

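Among 72 groups of 5 libraries (8 genes, 9 groups), 6 held a library far from the other 4 by Dixon's test at 0.71, where chance flags about 1 in 20, or 3.6. In IMR-32 these were MYBL1 at 5 days (replicate 5, 7.28 CPM, next 4.47), LIN52 in controls (replicate 5, 24.7 CPM, next 20.4) and at 24 h (replicate 5, 16.03, next 13.05), and LIN54 in controls (replicate 5, 41.8, next 32.3) and at 5 days (replicate 1, 31.6, next 38.7). In SK-N-BE(2)C it was LIN52 at 7 days (replicate 3, 13.2 CPM, next 11.3). Of the 6, 4 were replicate 5 of IMR-32.

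Of 48 differences of response between lines, 13 were called, 3 at 24 h, where 2.04% to 4.49% of all genes were called, and 10 at the longer time, where 20.8% to 23.9% were. Against IMR-32, SK-N-BE(2)C differed at 24 h in LIN37 (-0.57 ± 0.16 log2 ± SE) and MYBL1 (1.07 ± 0.30), and at the longer time in MYBL2 (-1.67 ± 0.50), FOXM1 (-1.18 ± 0.31), MYBL1 (0.98 ± 0.25) and MYB (-2.58 ± 0.56). Against SH-SY5Y it differed at the longer time in LIN37 (-0.51 ± 0.16) and LIN52 (-0.69 ± 0.12). IMR-32 differed from SH-SY5Y in MYBL1 at 24 h (-1.62 ± 0.27), and at 5 days in MYBL2 (1.67 ± 0.50), FOXM1 (0.86 ± 0.31), MYBL1 (-0.67 ± 0.23) and MYB (1.85 ± 0.45). Days of treatment and line cannot be told apart in the pairs with SK-N-BE(2)C at the longer time.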

How the results depend on the processing

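Over 144 fold changes and differences, 2439 of 2566 values under other settings kept their direction and side of the limits, 67 lost a call, 7 gained one and 53 changed sign, 0 of them from a called value. MYB in SK-N-BE(2)C rests on 0 to 12 counts a treated library, which limits it. With adjusted p alone, members called higher were 1 (main 0) at 7 days against control and 4 (main 2) against 24 h in SK-N-BE(2)C, and 7 (main 4) at 5 days against 24 h in SH-SY5Y. With RLE factors or only the compared groups, 0 (main 1) were higher at 24 h in SH-SY5Y. Response differences between SK-N-BE(2)C and SH-SY5Y numbered 1 (main 2) at the longer time with RLE factors or DESeq2, and 1 (main 0) at 24 h with a replicate block. The replicate block changed no other member count by over 1.5 times, and with it 0 (main 3) MYBL2 over FOXM1 ratios passed, since 5 pairs cannot give p under 0.0625.

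With replicates 3 to 5 of SK-N-BE(2)C summed, 1 (main 2) rose from 24 h to 7 days and 0 (main 2) response differences with IMR-32 were called at 24 h. Signs then changed for MYB against IMR-32 (0.049) and LIN54 against SH-SY5Y (0.037) at 24 h, MYBL2 against SH-SY5Y at the longer time (-0.091) and untreated LIN52 against IMR-32 (-0.016).

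Leaving out libraries gave 1 to 2 members higher from 24 h to 7 days in SK-N-BE(2)C (1 without replicate 4), 0 to 1 higher at 5 days in IMR-32 (0 without control replicate 5), 0 to 1 higher at 24 h in SH-SY5Y, 0 to 1 response differences at 24 h between IMR-32 and SK-N-BE(2)C, 2 to 4 between IMR-32 and SH-SY5Y and 1 to 2 between SK-N-BE(2)C and SH-SY5Y at the longer time, 0 to 1 untreated differences between IMR-32 and SH-SY5Y, and 0 to 0 MYBL2 over FOXM1 ratios (4 against 4 cannot give p under 0.0286).

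Values near 0 changed sign. In SK-N-BE(2)C, LIN9 between 24 h and 7 days was 0.014 with RLE, 0.010 with library size alone, 0.0025 with the replicate block, 0.0024 with only these groups, 0.0044 in DESeq2 and -0.051 to 0.039 with libraries left out. With library size alone LIN37 in IMR-32 between treated times was 0.022, and LIN54 at 5 days in SH-SY5Y 0.0067. LIN54 between SK-N-BE(2)C and SH-SY5Y at 24 h was 0.0076 with RLE and 0.0077 in DESeq2, MYBL2 at the longer time -0.094 with the block, and untreated LIN52 between SK-N-BE(2)C and IMR-32 -0.048 with RLE.

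With libraries left out, SK-N-BE(2)C values ran from -0.0077 to 0.070 (LIN37 at 24 h), -0.26 to 0.052 (MYBL1 at 7 days) and, between treated times, -0.88 to 0.31 (MYB), -0.012 to 0.90 (MYBL2) and -0.00054 to 0.11 (LIN52). LIN37 in IMR-32 between treated times ran from -0.11 to 0.038. Response differences at 24 h ran from -0.091 to 0.21 (LIN37) and -0.14 to 0.028 (LIN52) between IMR-32 and SH-SY5Y, -0.40 to 0.14 (MYB, SK-N-BE(2)C against IMR-32), and -0.072 to 0.15 (FOXM1) and -0.076 to 0.030 (LIN54) between SK-N-BE(2)C and SH-SY5Y, and MYBL2 in this pair ran from -0.69 to 0.27 at the longer time. Untreated LIN9 ran from -0.063 to 0.031 (IMR-32 and SH-SY5Y), -0.094 to 0.083 (SK-N-BE(2)C against IMR-32) and -0.13 to 0.027 (SK-N-BE(2)C against SH-SY5Y), LIN37 from -0.13 to 0.018 and LIN52 from -0.052 to 0.096 (both SK-N-BE(2)C against IMR-32). Log2 ratios ran from -0.0078 to 0.29 (MYBL2 over FOXM1, treated times, SH-SY5Y), and for MYB over MYBL2 from -0.38 to 0.48 (treated times, SK-N-BE(2)C), -0.16 to 0.21 (24 h, IMR-32) and -0.55 to 0.10 (treated times, SH-SY5Y). With nothing added to the counts, ratios that need a count of 0 (MYB at 24 h in SK-N-BE(2)C) were not run.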
